A study of Mus musculus with 24 samples.

Results

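Aquaporins are membrane channels, and 8 of them, Aqp1, Aqp3, Aqp4, Aqp5, Aqp7, Aqp8, Aqp9 and Aqp11, were followed here across 24 mammary tumors of BALB/c mice. The members were taken as the non-control probes that carried one of these 8 gene names, which gave 12 of 39429 probes and 8 of 30119 genes on the array. The family was picked from results of these data that included the log2 ratios of early and late tumors, so the difference between these is given as a description, and the count of members called in the fit over all genes stands only beside the share of all genes. Diet and marker genes among late tumors were tested. The comparison of continuous diets and that of the change from late to early between diets also held early tumors. Their p-values and intervals are therefore not free of how the family was picked. Of the 8 genes, 7 had a probe that passed the signal filter (brighter than 10 over background in each dye, on 80% or more of the arrays) and entered the fits over 20960 genes. Aqp9 did not, with such a signal on 17 of 24 arrays.

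Every tumor arose after oral gavage of the carcinogen DMBA, which all groups shared, so no untreated tissue entered the comparison. The diets were a high-fat diet of animal fat (HFD) or a low-fat diet (LFD) from before puberty onward, or a switch at the end of puberty from LFD to HFD (LFD-HFD) or from HFD to LFD (HFD-LFD). The labels divided the tumors by onset into HFD early (3 tumors), HFD late (6), HFD-LFD early (3), HFD-LFD late (3), LFD late (5) and LFD-HFD late (4), which made 6 early and 18 late tumors. Each tumor was hybridised once, to a 2-color Agilent array that also carried a reference RNA made from 11 mouse cell lines. The labels number no animals, so the spread is that between single tumors. The latency and histology of a given tumor were not matched to its array. The epithelial markers Epcam, Krt8, Krt18, Krt19 and Cdh1 each had a probe well above background on 24 of 24 arrays.

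Aquaporins form tetramers in which each subunit holds its own pore. Aqp1, Aqp4, Aqp5 and Aqp8 belong to the classical water channels, Aqp3, Aqp7 and Aqp9 are aquaglyceroporins that also pass glycerol, and Aqp11 is a distant member that sits in intracellular membranes. In glandular tissue Aqp5 lies in the apical membrane of secretory cells, Aqp3 is typical of the basolateral membrane of epithelia and of epidermal keratinocytes, and Aqp1 is abundant in endothelium and red blood cells.

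The array reads each gene through probes of 60 bases. The first 30 bases are given below for the probes that stood for Aqp1, Aqp3 and Aqp5, the genes with the largest differences. Whole sequences are given for the additional probes of Aqp5, Aqp8 and Aqp11 and for the only probe of Aqp9. They are printed from 5′ to 3′ as the scanner files give them, in lower case without capitals because no stretch within a probe was singled out.
Aqp1 probe A_51_P125205, first 30 bases: ctgtgtatgtttctttgcaattgaatttca
Aqp3 probe A_51_P245090, first 30 bases: atctggagctatgacccttgactgggggct
Aqp5 probe A_55_P1990121, first 30 bases: agatagatggttcgtcgagtgccatcttat
Aqp5 probe A_55_P2071236: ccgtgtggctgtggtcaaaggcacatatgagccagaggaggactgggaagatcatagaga
Aqp8 probe A_55_P2078955: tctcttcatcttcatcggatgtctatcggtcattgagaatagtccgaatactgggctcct
Aqp9 probe A_55_P2106641: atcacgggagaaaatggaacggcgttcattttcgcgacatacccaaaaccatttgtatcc
Aqp11 probe A_55_P2177953: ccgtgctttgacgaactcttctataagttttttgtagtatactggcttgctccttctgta

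On mm9 the probe of Aqp1 lay at chr6:55298480-55298539 on the plus strand, that of Aqp3 at chr4:41039962-41040021 on the minus strand, and that of Aqp7 at chr4:40980431-40980490 on the minus strand. The Aqp3 and Aqp7 probes were thus 59.5 kb apart. The 2 probes of Aqp5 lay at chr15:99425138-99425197 (A_55_P1990121) and chr15:99424655-99424714 (A_55_P2071236) on the plus strand. Those of Aqp8 lay at chr7:130611453-130611512 (A_55_P2318584) and chr7:130606210-130606269 (A_55_P2078955) on the plus strand. The Aqp9 probe lay at chr9:70978252-70978311 and the Aqp11 probes at chr7:104874889-104874948 (A_55_P1995507) and chr7:104877482-104877541 (A_55_P2177953), all on the minus strand, and both Aqp4 probes were on chromosome 18. Gene models of this build were not used here, so exon and UTR positions are not given. The GC content of the 12 sequences was highest in the Aqp5 probe A_55_P2071236 (53.3%) and lowest in that of Aqp1. Over the 66 pairs of probes the longest shared run was 9 bases, and no other probe of the array carried the same sequence as any of the 12, so the probes of the family were distinct from each other.

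All values are log2 ratios of Cy5 over Cy3, which are read here as tumor over reference. This is the reverse of the dyes named in the study's methods, and it follows the sample labels and the signals. Between arrays the median SD of probes was 0.62 log2 units in Cy5 and 0.26 in Cy3, the channel that should be constant if it holds the reference. The 2 Y chromosome probes that were well above background in Cy3 on 24 arrays were lower in Cy5 by log2 ratios of -5.05 to -2.31, in female tumors. The ratios of different probes are not compared in level, since the reference differs from gene to gene.

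On 7 late arrays a run of scanner rows had lost Cy5 signal, over 18.3% to 24.5% of spots, and the spots in those rows were treated as missing. The loss took the values of Aqp1, Aqp3, Aqp7 and the brighter Aqp5 probe from 4 late tumors on slide 6 (MSU_24, MSU_28, MSU_93 and MSU_96), so these were measured in 6 early and 14 late tumors. The Aqp4 probe A_55_P2031939, the Aqp5 probe A_55_P2071236 and the Aqp11 probe A_55_P2177953 lost 3 late tumors on slide 7 (MSU_42, MSU_59a and MSU_59b). The remaining probes had no spot in a dimmed row. Where a setting below kept the dimmed spots, its values include spots with lost Cy5 signal. Onset also followed the slides in part. The 3 HFD early tumors were the whole of slide 2, and the 3 HFD-LFD early tumors shared slide 4 with 1 late tumor. Diet followed the slides too. For the probes without values on slide 6, the HFD late tumors measured were all on slide 3 and the LFD late tumors all on slide 1. For these probes the differences within HFD, and between HFD late and LFD late, cannot be told apart from slide. The first scan session does not separate them either. Scan sessions held 3 early and 8 late tumors, 3 early and 3 late, and 7 late tumors, and differences within the first 2 sessions are given beside the pooled ones.

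**Figure D1:**
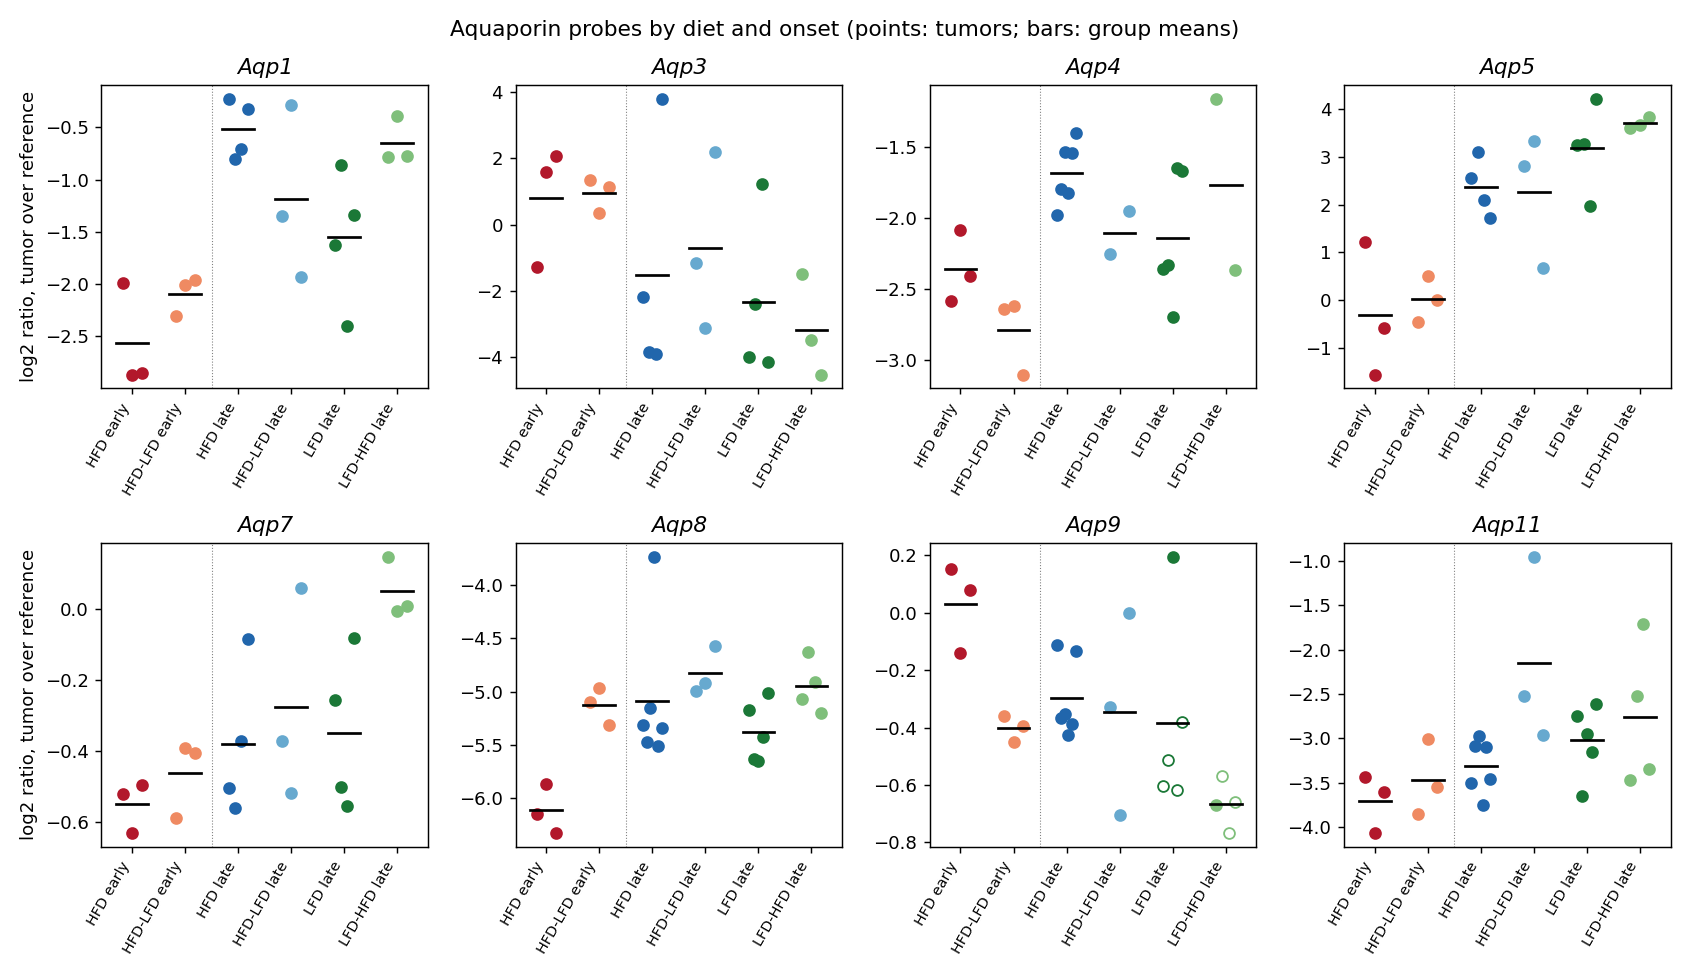
Log2 ratio of tumor over reference (vertical axes, 1 panel per aquaporin) in 6 groups of diet and onset, for the probe that stands for each gene. Points are tumors, bars are group means, open points had a signal at or under 10 in a channel, and a dotted line parts early from late groups. Aqp5 ran from -1.56 to 1.22 in early tumors and from 0.67 to 4.22 in late tumors, and Aqp3 spread over more than 8 log2 units among late tumors.

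Early tumors had less Aqp5 and Aqp1 and, in most cases, more Aqp3 than late tumors. The early minus late difference was -3.01 log2 units for Aqp5 (SE 0.44, 8.08-fold lower), -1.35 for Aqp1 (SE 0.28, 2.54-fold lower) and 2.80 for Aqp3 (SE 1.05, 6.97-fold higher). The other 4 tested aquaporins had smaller negative differences, of -0.67 (SE 0.19) for Aqp4, -0.67 (SE 0.29) for Aqp11, -0.52 (SE 0.22) for Aqp8 and -0.25 (SE 0.12) for Aqp7. Across the processing settings Aqp4 ran from -1.08 to -0.44 and Aqp11 from -1.04 to -0.35. Aqp8 ran from -1.09 to -0.13 and Aqp7 from -0.38 to -0.16. In the limma fit over 20960 genes with Benjamini-Hochberg adjustment, 3 of the 7 members (Aqp1, Aqp4 and Aqp5, all lower) fell under an adjusted p of 0.05. So did 17.9% of all genes (6.83% higher and 11% lower). With median centring in place of loess, 81.7% of called genes were higher, against 38.2% in this fit. With slide as a random block, 2 members and 1726 genes were called. The members had been chosen with this contrast in view, and nothing is read from their count. Their median difference was -0.67, beside -0.06 for all genes.

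Aqp5, the apical water channel of secretory cells, had log2 ratios of 1.22, -1.56 and -0.59 in the HFD early tumors MSU_163, MSU_768 and MSU_97, and of -0.45, 0.50 and 0.01 in the HFD-LFD early tumors MSU_51, MSU_54 and MSU_62b. Among late tumors it had 2.55, 3.11, 2.10 and 1.73 in the HFD tumors MSU_62a, MSU_67, MSU_84 and MSU_86, and 2.81, 3.34 and 0.67 in the HFD-LFD tumors MSU_26, MSU_58 and MSU_59b. The LFD tumors MSU_105, MSU_122a, MSU_137 and MSU_34 had 3.25, 3.27, 1.98 and 4.22, and the LFD-HFD tumors MSU_42, MSU_45 and MSU_59a had 3.60, 3.67 and 3.85. Thus 13 of 14 late tumors lay above the highest early tumor, MSU_163, and only MSU_59b lay below it. Early tumors had a mean of -0.15 ± 0.96 (SD, n = 6), and late tumors one of 2.87 ± 0.97 (SD, n = 14). The difference was -2.68 (SE 0.66) within HFD and -2.25 (SE 0.70) within HFD-LFD. It was -3.09 within the first scan session and -3.25 within the second.

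The other Aqp5 probe, A_55_P2071236, which was measured in another set of 15 late tumors, gave a smaller difference of -1.52 (-1.33 within the first scan session and -2.37 within the second). Its early tumors lay between -0.80 and 1.01 and its late tumors between -0.18 and 2.25, and 10 of 15 late tumors lay above the highest early tumor. Over the 11 late tumors in which both probes were measured, their Pearson correlation was 0.51. HFD late MSU_96, one of the tumors for which the brighter probe was missing, was the lowest late tumor on this probe.

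Aqp1, a water channel of endothelium and red cells, had log2 ratios of -1.99, -2.86 and -2.85 in the HFD early tumors (in the order above) and of -2.31, -2.01 and -1.96 in the HFD-LFD early tumors. The late tumors had -0.23, -0.80, -0.71 and -0.33 with HFD, -1.35, -0.28 and -1.93 with HFD-LFD, -1.62, -0.86, -2.40 and -1.34 with LFD, and -0.79, -0.40 and -0.77 with LFD-HFD. LFD late MSU_137 was the only late tumor within the range of the early tumors, and the other 13 of 14 lay above all of them. Means were -2.33 ± 0.43 (SD, n = 6) and -0.99 ± 0.66 (SD, n = 14). The difference was -2.05 (SE 0.36) within HFD and -0.91 (SE 0.39) within HFD-LFD, and -1.53 and -1.42 within the first and second scan sessions.

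Aqp3, the aquaglyceroporin of basolateral membranes and of keratinocytes, was the only tested member with a higher mean in early tumors, and the 2 onset groups overlapped. The HFD early tumors had log2 ratios of -1.29, 1.59 and 2.06 and the HFD-LFD early tumors 1.36, 0.35 and 1.14, so that MSU_163, the early tumor with the most Aqp5, had the least Aqp3. The late tumors had -2.17, -3.85, -3.90 and 3.79 with HFD, -1.16, -3.11 and 2.17 with HFD-LFD, -3.99, -2.39, 1.22 and -4.14 with LFD, and -1.50, -3.49 and -4.53 with LFD-HFD. Of 14 late tumors 10 lay below the lowest early tumor, 2 lay within the early range and 2 lay above it. HFD late MSU_86, HFD-LFD late MSU_59b and LFD late MSU_137 had positive ratios and lay apart from the other 11 late tumors. Means were 0.87 ± 1.20 (SD, n = 6) and -1.93 ± 2.60 (SD, n = 14). The difference was 2.32 (SE 1.73) within HFD, 1.65 (SE 1.85) within HFD-LFD, 2.72 within the first scan session and 3.54 within the second.

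The 2 probes of Aqp4, a water channel best known from astrocytes, gave different pictures. On A_55_P2031939, which stood for the gene, early tumors had -2.57 ± 0.33 (SD, n = 6) and late tumors -1.90 ± 0.43 (SD, n = 15), and 10 of 15 late tumors lay above the highest early tumor. On A_55_P2000369 the means were -1.78 ± 0.71 (SD, n = 6) and -1.78 ± 0.49 (SD, n = 18). Over 15 late tumors the probes had a correlation of -0.30. The values of A_55_P2000369 differed between scan sessions and between diets, with late means of -1.98 in the first session and -0.98 in the second, and early means of -2.41 and -1.15. The first session held only tumors of continuous diets and the second only tumors of switched diets, so session and diet cannot be told apart between these. In the third session the 3 tumors of continuous diets had -2.41 to -2.06 and the 4 of switched diets -1.95 to -1.20. The part of either in these values was not tested. On A_55_P2031939 the early minus late difference was -0.33 within the first session and -0.60 within the second, beside -0.67 over all tumors.

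Aqp7, a glycerol channel of adipocytes, varied little. Early tumors lay between -0.63 and -0.39 and late tumors between -0.56 and 0.15, with 9 of 14 late tumors above the highest early tumor. The 3 LFD-HFD late tumors had -0.0049, 0.0078 and 0.15, the highest group mean (0.05 ± 0.08, SD, n = 3). The Aqp7 difference was -0.18 within the first scan session and -0.16 within the second. Aqp9, the glycerol channel known from liver and white blood cells, had log2 ratios of -0.45 to 0.15 in early and -0.77 to 0.19 in late tumors. Its probe was well above background in the tumor channel on 14 of 24 arrays, in 5 of 6 early and 9 of 18 late tumors, among them 1 of 5 LFD late tumors and 0 of 4 LFD-HFD late tumors. It has only a bound in the latter group, and its late values below -0.43 all came from spots not well above background. It entered the fits only in the alternative without a signal filter.

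Aqp8, a water channel that also passes hydrogen peroxide, was far lower in tumors than in the reference on A_55_P2318584, with -6.33 to -4.96 in early and -5.65 to -3.73 in late tumors. The HFD early tumors (-6.11 ± 0.23, SD, n = 3) had a lower mean than the HFD-LFD early tumors (-5.12 ± 0.18, SD, n = 3). This difference was not tested, and the 2 groups lay on different slides and in different scan sessions, from which it cannot be told apart. The highest late tumor, HFD late MSU_86 at -3.73, was also the late tumor with the most Aqp3. The early minus late difference was -0.97 within the first session and -0.18 within the second. The other Aqp8 probe, A_55_P2078955, was well above background in the tumor channel on 4 of 24 arrays and is not compared between groups.

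Aqp11, the intracellular aquaporin, was measured alike by its 2 probes, which had a correlation of 0.93 over 15 late tumors. On A_55_P1995507 early tumors lay between -4.06 and -3.001 and late tumors between -3.75 and -0.96, with 9 of 18 late tumors above the highest early tumor. On A_55_P2177953 14 of 15 late tumors lay above the highest early tumor, with ranges of -2.65 to -2.23 and -2.23 to -0.86. HFD-LFD late MSU_58 was the highest tumor on both. The difference on A_55_P1995507 was -0.39 (SE 0.39) within HFD and -1.32 (SE 0.44) within HFD-LFD, and -0.54 and -1.73 within the first and second scan sessions.

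**Figure D2:**
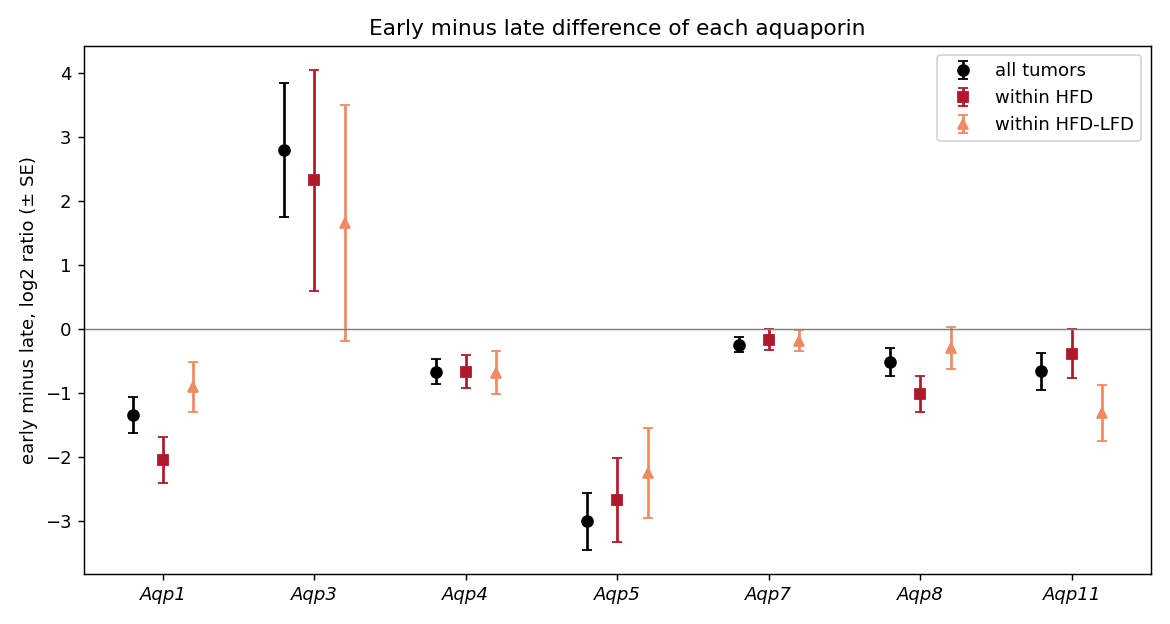
Early minus late difference of the log2 ratio (vertical axis) for the 7 tested aquaporins, over all tumors (circles), within HFD (squares) and within HFD-LFD (triangles). Bars are standard errors of the limma fits. Aqp3 lies above 0 at 2.80 over all tumors, and Aqp5 at -3.01 lies farthest below 0.

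These differences stood beside changes in the cell type markers of the same tumors. In bulk RNA, fewer cells of a type and less RNA per cell cannot be told apart. The counts called below stand beside 17.9% of all genes (6.83% higher and 11% lower), and nothing is read from a count of 1 in a list. The direction of calls also depends on scaling, with 81.7% of called genes higher under median centring against 38.2% here. In early tumors 5 of 5 tested proliferation genes were higher (adjusted p under 0.05, limma), with list scores (mean z over the genes) of 0.48 to 1.75, against -1.84 to 1.46 in late tumors. Of the luminal hormone receptor genes 5 of 5 were lower, with scores of -1.42 to 0.07 against -1.50 to 1.13. Of the 6 genes of the milk list 1 was called lower and 0 had a higher mean (list median -2.03), with scores of -1.27 to 1.20 against -1.31 to 1.33. Of 5 general epithelial genes 1 was called lower and 1 had a higher mean (list median -1.80), with scores of -1.13 to 0.58 against -2.65 to 1.05. Of the 8 endothelial genes, which mark cells rich in Aqp1, 1 was called lower, with scores of -1.07 to 0.17 against -0.95 to 1.18, and of the 3 tested erythrocyte genes 0 were called (-1.97 to 0.21 against -0.97 to 1.495). All 8 and all 3 had a lower mean in early tumors, with list medians of -0.33 and -0.39. Of 10 squamous genes, which mark keratinizing cells, 1 was called lower while 8 had a higher mean in early tumors (-0.74 to 0.77 against -0.70 to 2.44). No adipocyte gene of 6 was called (-0.96 to 0.19 against -1.65 to 2.88), and 0 of the 6 had a higher mean in early tumors (list median -0.89). The part of these cell types in the aquaporin differences was not tested.

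Genes that work beside aquaporins were described through lists chosen with earlier results of these data known. Each is read against the 17.9% of all genes that were called between early and late tumors (6.83% higher and 11% lower). Of 3 other tested aquaporin-family genes 1 was called lower, Aqp2, the vasopressin-regulated channel of the kidney (-0.40, SE 0.14), and Aqp12 had -0.16 (SE 0.11). In glycerol and triglyceride handling 4 of 16 genes were called, all lower, with a list median of -0.52. They included Mgll, which releases glycerol from monoacylglycerol (-1.51, SE 0.38), and Gpd1, which makes glycerol 3-phosphate (-1.23, SE 0.32). In epithelial salt and fluid transport 4 of 20 were called, all lower (median -0.15), with Slc12a2, the basolateral sodium, potassium and chloride cotransporter of secretory epithelia, at -2.18 (SE 0.68) and Scnn1a, a subunit of the epithelial sodium channel, at -1.36 (SE 0.37). In cell volume regulation 0 of 16 were called (median -0.36), and the genes with the greatest differences were Stk39 (-0.80, SE 0.32) and Lrrc8b (-0.61, SE 0.32), neither past the threshold.

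Of 23 genes of hydrogen peroxide production and removal, 1 was called higher and 4 lower (median -0.15). Gpx3, the secreted glutathione peroxidase, had -1.96 (SE 0.59), and Duoxa1, a maturation factor of dual oxidase, had 1.48 (SE 0.53) without passing the threshold. Of 13 genes of the dystrophin complex, which anchors Aqp4 in other tissues, 2 were called lower (median -0.26), among them Sgcd, a sarcoglycan (-0.81, SE 0.23). The shares called were 33.3%, 25%, 20%, 0%, 21.7% and 15.4% in the order of the lists, against 17.9% over all genes (6.83% higher and 11% lower).

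Whether the change from late to early differed between HFD and HFD-LFD, the diets that had both kinds of tumor, was tested for all genes. None of 20939 genes passed an adjusted p of 0.05 (percent called 0), with 1699 under an unadjusted p of 0.05, and 0 of 7 aquaporins passed. This contrast draws on the early tumors, whose values were in view when the members were chosen. Aqp1 had the smallest p of the family. Its change was -2.05 within HFD and -0.91 within HFD-LFD, a difference of -1.14 (SE 0.53, 95% interval -2.26 to -0.02, limma adjusted p = 0.612). It was -0.28 with the spots of the dimmed rows kept. For the others the difference lay between -0.73 (Aqp8) and 0.93 (Aqp11). The interval for Aqp3, -4.67 to 6.02, left large differences of either sign possible, while that for Aqp7, read from a dim probe, was -0.47 to 0.50.

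The comparison of continuous diets, 9 HFD tumors against 5 LFD tumors, called 0 of 20960 genes (percent called 0, 963 under an unadjusted p of 0.05) and 0 of 7 aquaporins. Aqp5 had a difference, HFD minus LFD, of -1.96 log2 units (SE 0.83, 95% interval -3.78 to -0.14, limma adjusted p = 0.962), over the 7 HFD and 4 LFD tumors in which it was measured. The HFD group included the 3 early tumors and the LFD group none, so that diet and onset are mixed in this comparison. Its interval and p-value are not free of the choice of members, which was made with early and late values in view. Aqp11 differed by -0.42 (SE 0.20, interval -0.85 to 0.01), and the other 5 members by -0.10 to 1.79.

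With onset held at late, pubertal diet and adult diet were each compared as contrasts of the 4 late groups. For Aqp1, Aqp3, Aqp7 and the brighter Aqp5 probe, the HFD late tumors measured were all on slide 3 and the LFD late tumors on slide 1. Diet and slide cannot be told apart between these groups. HFD against LFD in puberty called 1 of 20947 genes (0.00477%) and no aquaporin, with 1926 genes under an unadjusted p of 0.05. Aqp5 had a difference of -1.12 for HFD minus LFD in puberty (SE 0.46, 95% interval -2.10 to -0.14, limma adjusted p = 0.509). It was -0.72 without HFD-LFD late MSU_59b and -0.70 without slides 6 and 7. Its late means were 2.37 ± 0.59 (SD, n = 4) with HFD and 2.27 ± 1.41 (SD, n = 3) with HFD-LFD, against 3.18 ± 0.92 (SD, n = 4) with LFD and 3.71 ± 0.13 (SD, n = 3) with LFD-HFD, and the tumors of the first 2 groups overlapped those of LFD but none reached the lowest LFD-HFD tumor on this probe. On the other Aqp5 probe, A_55_P2071236, the late means were 1.09 ± 0.72 (SD, n = 6) with HFD, 2.04 ± 0.26 (SD, n = 2) with HFD-LFD, 1.17 ± 0.44 (SD, n = 5) with LFD and 2.01 ± 0.33 (SD, n = 2) with LFD-HFD. The HFD-LFD tumors (1.85 and 2.22) lay within the range of the LFD-HFD tumors (1.78 and 2.25) there, so the 2 probes did not give the same order of the groups. The other 6 members differed by -0.18 to 1.63.

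HFD against LFD in adulthood called 0 of 20947 genes (percent called 0, 1244 under an unadjusted p of 0.05) and no aquaporin. Aqp1 had a difference of 0.79 for HFD minus LFD in adulthood (SE 0.26, 95% interval 0.24 to 1.33, limma adjusted p = 0.799), with no value from 4 late tumors. It was 0.22 with the spots of the dimmed rows kept and 0.50 with missing values imputed. Its late means were -0.52 ± 0.28 (SD, n = 4) with HFD and -0.65 ± 0.22 (SD, n = 3) with LFD-HFD, against -1.55 ± 0.64 (SD, n = 4) with LFD and -1.19 ± 0.83 (SD, n = 3) with HFD-LFD. All 7 tumors on HFD in adulthood lay between -0.80 and -0.23, and of the 7 on LFD only MSU_58 lay in that range. The other members differed by -0.84 to 0.40. In all 4 comparisons the aquaporin with the smallest p had an unadjusted 95% interval that excluded 0, and it did not pass once the p-values were adjusted over all genes.

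**Figure D3:**
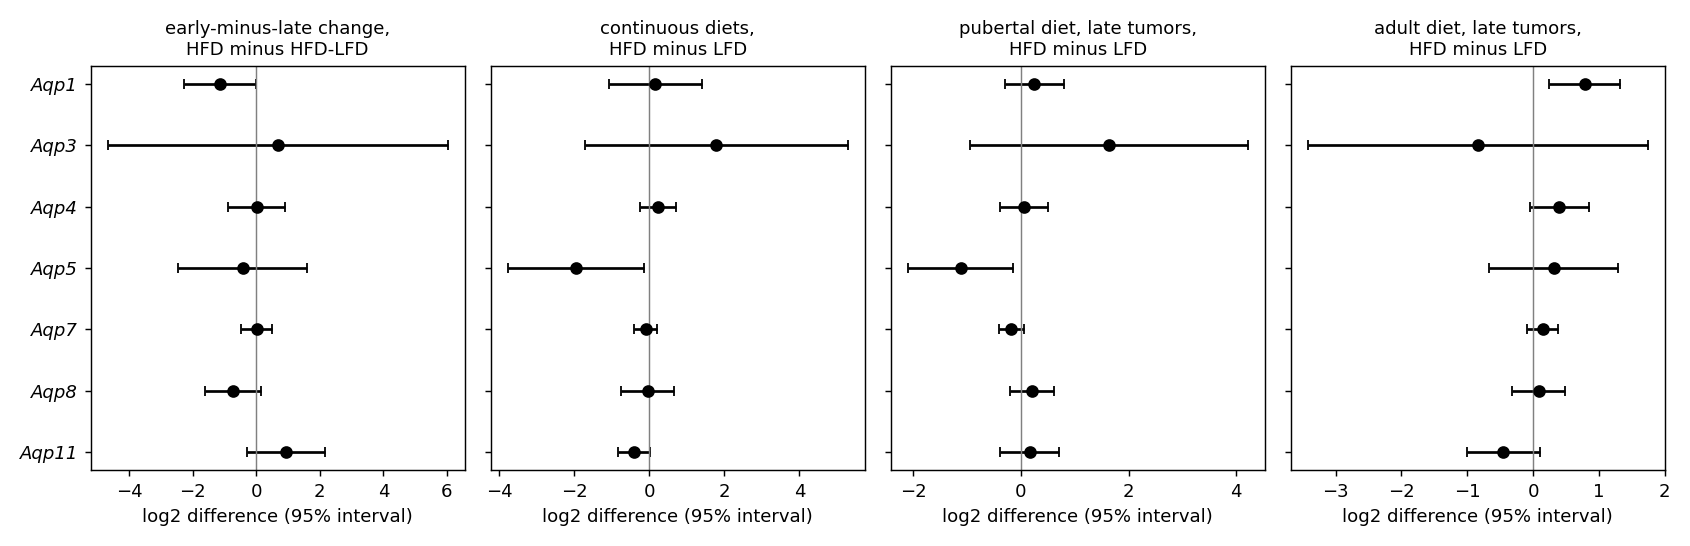
Differences in log2 ratio (horizontal axes) of the 7 tested aquaporins in 4 comparisons of diet, 1 panel each. Points are limma estimates and bars their 95% intervals. The intervals of Aqp1 in the first and last panel and of Aqp5 in the middle panels exclude 0 before adjustment, and none of the members passed after it. The first and second panels include early tumors, whose values were in view when the members were chosen.

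Among late tumors alone, which are one arm of the contrast in view when the family was picked, the aquaporins were correlated with 13 cell type marker lists. Of 91 pairs of a member and a list, 6 passed an adjusted p of 0.05 for Pearson's r and 2 for Spearman's rho (permutation tests, 100000 resamples, two-sided), and 16 had an unadjusted p under 0.05 for r. These values are across bulk tumors that share slides, scan sessions and dimmed rows.

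Aqp3 followed the squamous list, 10 genes of keratinizing epithelium, with r = 0.91 over 14 late tumors (permutation p = 1e-05, the smallest that the resamples can give, adjusted p = 0.00091) and rho = 0.67 (permutation p = 0.0106, adjusted 0.193). It ran against the luminal hormone receptor list (r = -0.91, permutation p = 4e-05, adjusted p = 0.00182; rho = -0.88, permutation p = 5e-05, adjusted 0.00455). Without the 2 tumors farthest from the median list score, r was 0.82 and -0.87, and over the 8 late tumors of the first scan session 0.92 and -0.93. With the spots of the dimmed rows kept, r with the luminal hormone receptor list was -0.37 over 17 tumors and no longer passed (adjusted p = 0.49, permutation test). Without MSU_86, MSU_59b and MSU_137, the 3 late tumors with a positive Aqp3 ratio, r was 0.66 and -0.76 over 11 tumors and no pair of the family passed the adjustment (adjusted p = 0.278 for each of these, permutation test). Aqp3 also ran against the epithelial list (r = -0.75, permutation p = 0.00298, adjusted p = 0.0452; rho = -0.52, permutation p = 0.0582, adjusted 0.331), a relation that rests on 2 tumors, since without the 2 farthest r was -0.19. Within the first session that r was -0.77.

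Aqp5 ran the other way. It had a positive correlation with the luminal hormone receptor list (r = 0.79, permutation p = 0.00098, adjusted p = 0.0215; rho = 0.80, permutation p = 0.00102, adjusted 0.0464), with r = 0.79 without the 2 farthest tumors and 0.81 in the first scan session. Without slides 6 and 7 r was 0.79 over 11 tumors and missed the threshold (adjusted p = 0.0846, permutation test). It ran against the neutrophil list (r = -0.85, permutation p = 0.00024, adjusted p = 0.00728; rho = -0.75, permutation p = 0.00292, adjusted 0.0714), where r was -0.61 without the 2 farthest tumors and -0.67 in the first session. That call was lost with the dimmed rows kept (r = -0.20, adjusted p = 0.72), with imputed values (-0.58, adjusted p = 0.0774) and without slides 6 and 7 (-0.70, adjusted p = 0.167), all from permutation tests. With the squamous list r was -0.72 (permutation p = 0.00574, adjusted p = 0.0653), short of the threshold.

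Aqp8 ran against the epithelial list over 18 late tumors (r = -0.81, permutation p = 0.00118, adjusted p = 0.0215; rho = -0.54, permutation p = 0.024, adjusted 0.323). The relation rests on 2 tumors, since r was -0.34 without the 2 farthest. Without MSU_86 alone, the tumor with the lowest epithelial score, r was -0.39 (adjusted p = 0.46, permutation test). With normexp fitted on all spots it was -0.35 over the same 18 tumors (adjusted p = 0.459, permutation test). In the first scan session, which includes MSU_86, r was -0.94, and in the third, over 7 tumors, -0.47.

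Aqp1 had its highest r with the adipocyte list (0.69, permutation p = 0.00565, adjusted p = 0.0653), followed by the erythrocyte (0.63) and endothelial lists (0.60), none past the adjusted threshold. Over the 8 late tumors of the first scan session these values were 0.77, 0.80 and 0.83. Aqp7 had r = 0.21 with the adipocyte list, the cells it is known from. Aqp4 and Aqp11 passed with no list, with the strongest values at -0.51 (Aqp4 with the milk list) and 0.57 (Aqp11 with the erythrocyte list).

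**Figure D4:**
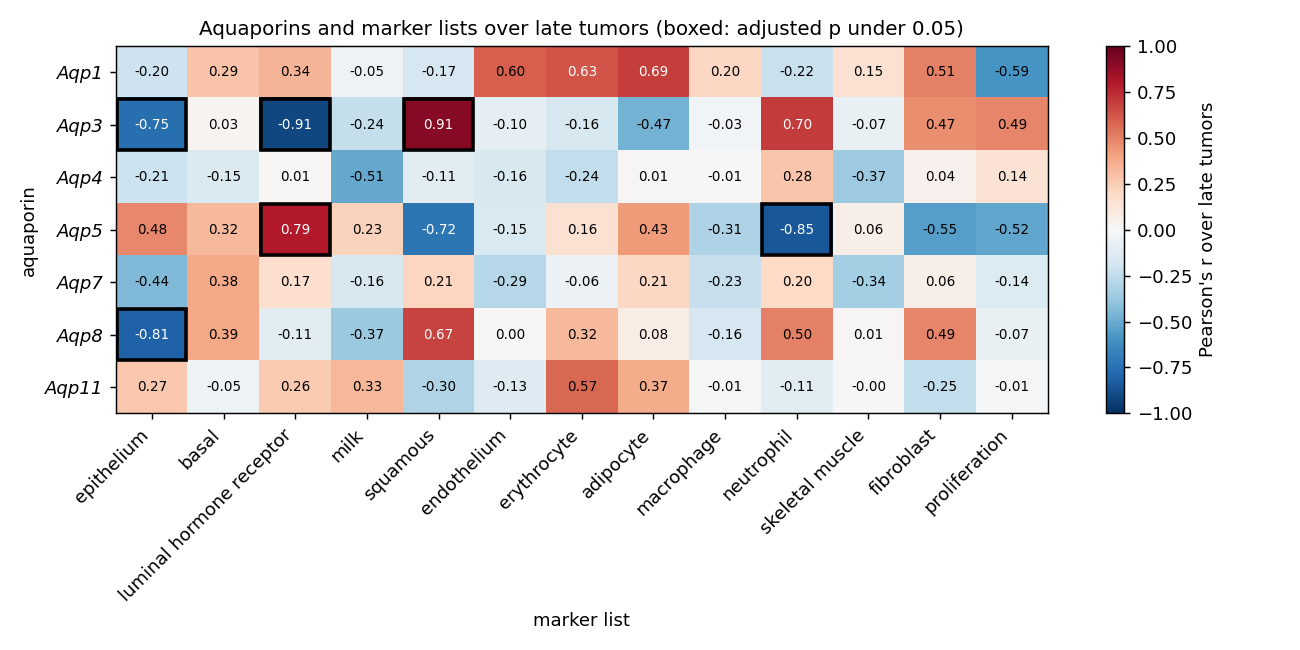
Pearson's r over late tumors between each of the 7 tested aquaporins (rows) and the score of each of 13 marker lists (columns), as a color from blue (-1) to red (1) and as a printed value. Boxes mark the 6 pairs with an adjusted permutation p under 0.05, 3 of them in the row of Aqp3, 2 in that of Aqp5 and 1 in that of Aqp8.

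The members were also correlated with each other over late tumors, in 21 pairs that were computed after their values had been seen. Aqp3 and Aqp5 had r = -0.77 over 14 tumors (permutation p = 0.00168, adjusted p = 0.0353; rho = -0.70, permutation p = 0.00689, adjusted 0.129) and were the only pair under an adjusted p of 0.05 for r, while 0 pairs were for rho. Without the 2 tumors farthest in Aqp3 r was -0.56, within the first scan session -0.71, and without the 3 late tumors with a positive Aqp3 ratio -0.28 over 11 tumors. With the spots of the dimmed rows kept, which had lost Cy5 signal, r was 0.063. Aqp7 and Aqp8 had r = 0.63 (permutation p = 0.00981, adjusted p = 0.103). Aqp3 and Aqp7, although their probes lay 59.5 kb apart on chromosome 4 and in the same scanner row, had r = 0.15 (permutation p = 0.621, adjusted p = 0.898).

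**Figure D5:**
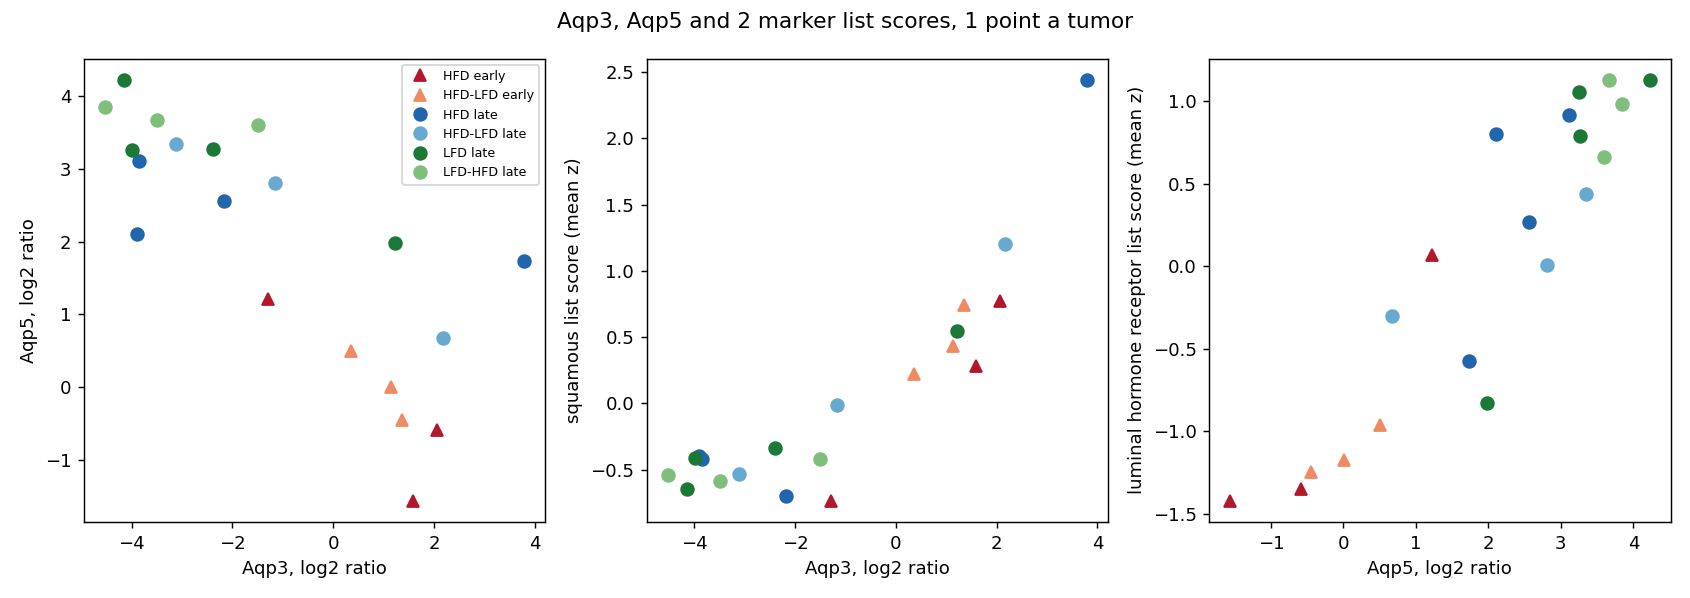
Aqp3 against Aqp5 (left), Aqp3 against the squamous list score (middle) and Aqp5 against the luminal hormone receptor list score (right), with log2 ratios of tumor over reference and list scores as mean z over all tumors. Circles are late and triangles early tumors, colored by diet, for the 20 tumors in which the genes were measured. Late tumors with positive Aqp3 ratios, up to 3.79, are those with the 3 highest squamous scores among the late tumors shown, and the early tumors lie at the low end of Aqp5.

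The genes most like each aquaporin were those with the highest Pearson r over the late tumors among all genes tested with at least 14 shared tumors. The values are a likeness and carry no test. For Aqp3 they were Spink5 (r = 0.96), a protease inhibitor of cornified epithelia, Lce3c (0.96), a late cornified envelope gene, and Pde6a (0.95). For Aqp5 they were Ddt (0.95), Cyhr1 (0.93) and Pomgnt1 (0.93), for Aqp1 Map7d2, Gbp4 and Tmtc1 (each 0.88), and for Aqp4 Adra2b (0.87), Sprn (0.86) and Ddx25 (0.86). Aqp8 was most like Psd (0.94), Tnfsf12 (0.94) and Sult4a1 (0.93), and Aqp11 most like Sun2 (0.91), 0610039H22Rik (0.86) and Poldip3 (0.83). Aqp7 was most like Pnkd (0.92), the transcript ENSMUST00000117223 (0.91) and the unnamed probe A_55_P2140171 (0.91). Over all tumors measured, early ones included, r was 0.92, 0.95 and 0.87 for the 3 genes most like Aqp3, and 0.93, 0.85 and 0.93 for those most like Aqp5, while for Map7d2 with Aqp1 it was 0.18.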

How the data were processed

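Total RNA of 24 tumors was hybridised in Cy5 beside a common reference RNA in Cy3. The files deposited by the authors hold, for each spot and dye, intensity readings of the scanner software (the mean of the spot, the median of its local background, and a version with background removed), not normalized between dyes. They also hold log10 ratios of Cy5 to Cy3 that the authors deposited as the software made them, used here as an alternative. The submitters' processing notes name Agilent Feature Extraction 8.5.1.1 and the file headers 11.0.1.1.

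R 4.3.3 and limma 3.58.1 were used. The normexp correction (offset 50) was fitted to spots free of outlier flags, and ratios were normalized by loess within arrays. An array was taken as dimmed where any band of 10 rows lay below -1 of its median log2 ratio, and its bands below the lowest band of the 17 other arrays (-0.33) were set missing. Spots with an outlier flag were also set missing. Spots with a signal at or under 10 were missing in the fits and correlations, while printed levels and plots keep them. No value was imputed, which departs from the study. Of 39429 probes 27302 were kept, and the brightest probe of a gene stood for it (20960 genes). In the tumor channel 66.1% to 89.2% of the probes of an array were called well above background, and the number of arrays limits the precision. Symbols were updated through a RefSeq table (27234 probes by accession, 3576 by symbol, 565 by an older symbol, 8054 unmatched).

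Fits used lmFit and eBayes with Benjamini-Hochberg adjustment over all genes: early against late over 24 arrays, HFD against LFD over 14, and contrasts of 6 group means for the diet comparisons. List scores are means of z-scored genes measured on at least 80% of arrays. The members and lists were chosen with earlier results of these data known. Named genes were the 8 members, the 3 genes most like each, and the 2 genes of each list with the greatest early minus late difference. Of these, 1 gene is not reported here. Alternatives were other background, scaling, filter, probe and missing-value settings, slide, scan session and array weights, and arrays left out. Correlations between members, and the alternative without late tumors of positive Aqp3, were added after values had been seen. The steps were tested on simulated data.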

Additional observations from a re-analysis of the deposited data

Results flagged for a closer look

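In 19 groups of 4 to 6 tumors with a value for an aquaporin, 1 tumor stood apart from the rest of its group by Dixon's test, about the number that chance gives at 1 in 20 groups. Aqp8 in HFD late MSU_86 had a log2 ratio of -3.73, against -5.15 in the next tumor of the 6, a gap of 0.80 of the group's range, above the 95% critical value. The same tumor had the highest Aqp3 ratio (3.79), the highest squamous score (2.44) and the lowest epithelial score (-2.65) of the late tumors.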

How the results depend on the processing

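The labels pair no tumors across groups, so no paired analysis was run. Tumors did share slides and scan sessions, and alternatives took slide as a random block or scan session as a fixed term. Over 38 settings, 24 of them with 1 array left out, the early minus late difference of each tested aquaporin kept its sign. With single arrays left out it ranged from -3.29 to -2.73 for Aqp5, from -1.45 to -1.24 for Aqp1 and from 2.56 to 3.24 for Aqp3. It was -1.99 for Aqp5 with the spots of the dimmed rows kept, and -1.09 for Aqp8 with normexp fitted on all spots. Aqp8 had -0.13 with median centring and -0.18 with array weights in place of -0.52, and Aqp11 had -0.35 with median centring, -1.03 with scan session as a term and -1.04 with normexp on all spots in place of -0.67. Aqp1 had -0.87 with median centring in place of -1.35. Aqp4 had -0.44 with scan session and -1.08 with normexp on all spots in place of -0.67, and Aqp7 -0.38 with the scanner's log ratio and -0.16 without slides 6 and 7 in place of -0.25. No aquaporin was called under any setting in the difference between diets in this change, in the comparison of continuous diets, or by pubertal or adult diet.

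Between early and late tumors, 2459 genes were called in place of 3746 with the dimmed rows kept, 1726 with slide as a random block, 7990 with array weights, and 2085 to 4568 with an array left out, the lowest without HFD early MSU_768. Of the aquaporins, 5 were called with scan session as a fixed term (beside 5436 genes) and 5 with array weights. There were 4 with normexp on all spots (4765 genes), imputed values (4199) and every probe tested by itself (4631 probes). There were 2 with the dimmed rows kept, slide as a random block, the scanner's log ratio (2988 genes), the tumor channel alone (2711) or slides 6 and 7 left out (3934), and 2 to 4 with an array left out. Median centring moved the median difference of all genes from -0.06 to 0.21 and the share of called genes that were higher from 38.2% to 81.7%. For the difference between diets in this change, 1 gene was called with imputed values, 921 with array weights and 0 to 17 with an array left out (17 without MSU_97, 4 without MSU_163). For continuous diets 277 were called with array weights and 0 to 1 with an array left out (MSU_62a). For pubertal diet the count was 0 with the dimmed rows kept, with imputed values or without slides 6 and 7, 9 with scan session as a term, 873 with array weights, and 0 to 20 with an array left out (20 without MSU_26, 3 without MSU_62a, 2 without MSU_59a or MSU_86, 0 without MSU_58). For adult diet it was 1 with scan session, 45 with array weights, 23 without slides 6 and 7, and 0 to 1 with an array left out (MSU_86). The cause was not tested for any of these.

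In place of 6 pairs of an aquaporin and a marker list, 9 were called with median centring, 8 with imputed values, 7 with the tumor channel alone, 2 without slides 6 and 7, 0 without the 3 late tumors of positive Aqp3, and 5 to 6 with a tumor left out. Fewer tumors were tested in the last 3. With the dimmed rows kept, r was 0.063 for Aqp3 with Aqp5, -0.37 for Aqp3 with the luminal hormone receptor list and -0.20 for Aqp5 with the neutrophil list, both calls lost (adjusted p = 0.49 and 0.72). Aqp3 with the epithelial list lost its call with the dimmed rows kept (adjusted p = 0.101), median centring (0.0708), every probe tested by itself (0.0609), without slides 6 and 7 (0.228, r = -0.77) and in 11 of 18 settings that left out a tumor, with adjusted p up to 0.184 (without MSU_86), and Aqp8 with the epithelial list lost it without MSU_86 or MSU_59b (adjusted p = 0.0845), without slides 6 and 7 (0.074, r = -0.91) and with normexp on all spots. These p-values are from permutation tests.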
